A study of Mus musculus with 6 samples.

Results

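The response to TNF-α of C2C12 cells kept in differentiation medium was compared with the response of the same line kept in growth medium. C2C12 is a mouse myoblast line, and the labels call the cells of all groups myoblasts. The comparison used 4 of the 6 arrays of the series, all from cells grown in DMEM with 10% FBS. The growth-medium pair were an untreated culture and a culture given TNF-α at 50 ng/ml for 24 h. The differentiation-medium pair had then received a 2% differentiation medium and were harvested on day 5, untreated or with 50 ng/ml TNF-α added on day 4; the labels give no duration in hours for that addition. The 2 arrays left out carried BTZ, an agent the labels do not spell out, at 10 nM. The quantity reported is a difference of differences on the log2 scale: the TNF effect in differentiation medium (TNF minus untreated) minus the TNF effect in growth medium. It was computed for 13652 of 22180 genes measured, those whose highest array reached a floor of 5.06, the median of all deposited values.

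Each of the 4 groups was a single array, so the difference of differences had 0 residual degrees of freedom. No value below carries an error or a p-value, and precision is limited by the number of arrays. A gene was counted where its difference of differences was at least 1 on the log2 scale, which is 2-fold. Medium, days in culture and the state of the cells changed together between the pairs and cannot be told apart. In whole cultures, fewer cells of a type and less RNA per cell cannot be told apart either.

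TNF-α binds receptors on the cell surface and frees the transcription factor NF-kB from its inhibitors, the IkB proteins. NF-kB then switches on genes for chemokines, cytokines, adhesion molecules and its own inhibitors, which close a feedback loop. Interferons act through another route, in which JAK kinases and STAT and IRF factors switch on antiviral genes through DNA elements called ISRE and GAS. Skeletal muscle cells take part in inflammation as sources of chemokines and complement, and TNF-α is known for blocking myoblast differentiation and for promoting muscle wasting.

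The cultures matched their media in muscle and cell cycle genes. Over 48 measured genes of the sarcomere, the contractile unit, the median level was 5.30 and 5.09 in untreated and TNF-treated growth medium, and 8.18 and 7.77 in differentiation medium. Over 68 mitotic genes the medians ran the other way, at 8.77 and 9.12 in growth medium and 6.11 and 6.76 in differentiation medium. Whether the cells had fused was not measured. Of 25 measured markers of macrophages and other leukocytes, between 3 and 6 reached the floor on any of the 4 arrays. Their summed log2 level lay between 111 and 114 on those arrays, and the median marker read 4.44 on the array of differentiation medium with TNF. Most of the summed values were under the floor, so the sum says little about the few markers above it. The highest marker read 6.57 and 6.80 in untreated and TNF-treated growth medium, and 7.08 and 8.14 in differentiation medium. The defining markers Ptprc, Adgre1, Itgam, Lyz2 and Tyrobp were under the floor on all 4 arrays, and Cd68 and Cd53 were above it on all 4. The 9 markers that reached the floor on any array of the series had a median difference of differences of 0.36. Of these 1 was at least 2-fold higher with TNF in growth medium (0.982% of all genes) and 1 in differentiation medium (2.01%). Fcer1g, a signalling chain of Fc receptors, was past 2-fold towards differentiation medium, at 5.22, 4.86, 5.16 and 5.87 in untreated and TNF-treated growth medium and then differentiation medium. Spi1, Vav1 and Fcgr3 differed by 0.57, 0.55 and 0.47, and read 5.13, 5.06 and 4.96 in differentiation medium with TNF, near or under the floor. The part of such cells in the results was not tested.

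Across the 13652 genes the difference of differences had a median of -0.03, with a 1st percentile of -0.995 and a 99th of 1.21. At least 2-fold towards differentiation medium were 251 genes (1.84%), and 136 genes (0.996%) were at least 2-fold towards growth medium. Together these are 387 genes, or 2.83%. At the 4-fold mark 30 genes lay towards differentiation medium and 7 towards growth medium, and at 8-fold 14 and 1. The upper tail was thus the longer. Background sets the reliability of many of these values. Of the 251 genes 151 reached the floor on all 4 arrays, while 38 reached it on the array of differentiation medium with TNF alone. A gene can thus pass the floor only through the array where it is high, which can raise list medians. Of the 136 genes 77 reached it on all 4 arrays, and 20 did so on the untreated differentiation-medium array alone. Predicted genes, small RNAs and receptor families, which are not named here, made up 32 of the 251 and 25 of the 136.

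A positive difference of differences does not say that TNF raised a gene. Of the 251 genes, 117 were at least 2-fold higher with TNF in differentiation medium, a size that 2.01% of all genes used reached there. Of these 117 genes 19 were also at least 2-fold higher in growth medium, which 0.982% of all genes were. Another 42 genes were at least 2-fold lower with TNF in growth medium (1.02% of all genes), and 38 of them were within 2-fold in differentiation medium. The remaining 92 genes were within 2-fold in each medium and passed by adding up opposite small effects. Towards growth medium the patterns were likewise mixed. There 34 genes were at least 2-fold higher with TNF in growth medium, 40 were at least 2-fold lower in differentiation medium (0.879% of all genes), and 63 were within 2-fold in each medium. The gene Uchl3 stands in both of the first counts. Because these classes are cut from the same values as the difference of differences, their sizes are a description only.

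**Figure D1:**
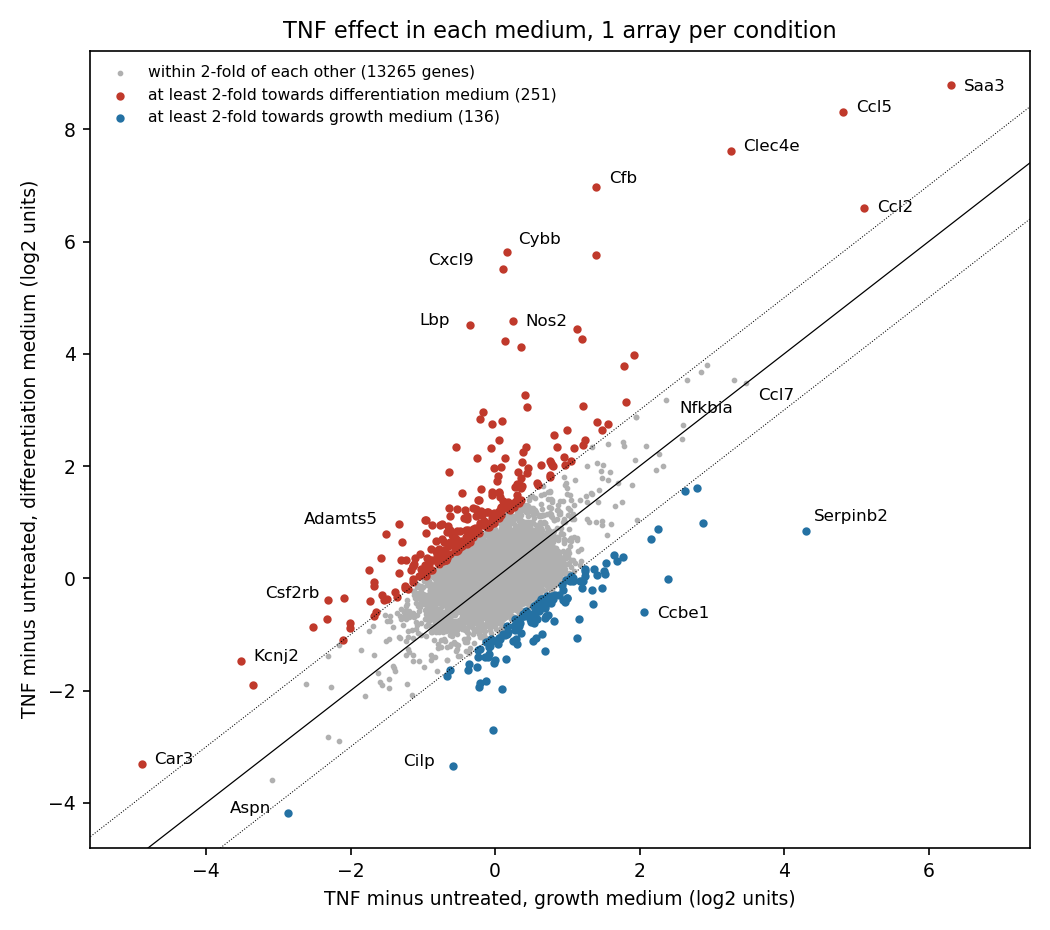
The TNF effect in growth medium (x axis, log2 units) is plotted against the TNF effect in differentiation medium (y axis, log2 units) for 13652 genes, each a point from single arrays without error bars. The solid line marks equal effects and the dotted lines a 2-fold difference; 251 genes lie above the dotted band (red) and 136 below it (blue), and Cybb, Cxcl9, Lbp and Nos2 sit high on the y axis at an effect near 0 on the x axis.

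Promoter sequence is shown for a few genes that stand for the patterns described below, chosen after their values were known. Sequences are RefSeq promoter windows of build GRCm38.p6, with 250 bases before and 50 after the annotated start, written 5′ to 3′ on the gene's strand. Capitals mark matches, on either strand, to the NF-kB consensus, the ISRE core (GAAA, any 2 bases, GAAA), the GAS element TTCNNNGAA and the AP-1 site TGANTCA. A match is a string of letters and no evidence of binding. Cybb (chrX:9469275-9469574, minus strand), Cxcl9 (chr5:92328030-92328329, minus strand), Gbp2b (chr3:142594597-142594896, plus strand) and Gbp5 (chr3:142496684-142496983, plus strand) are shown because they were high on the array of differentiation medium with TNF alone.
Cybb: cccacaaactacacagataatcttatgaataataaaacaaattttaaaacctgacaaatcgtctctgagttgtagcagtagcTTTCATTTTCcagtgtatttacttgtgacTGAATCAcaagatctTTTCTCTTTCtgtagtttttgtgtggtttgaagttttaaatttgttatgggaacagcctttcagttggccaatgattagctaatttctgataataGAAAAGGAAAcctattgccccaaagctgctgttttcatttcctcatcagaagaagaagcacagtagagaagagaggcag
Cxcl9: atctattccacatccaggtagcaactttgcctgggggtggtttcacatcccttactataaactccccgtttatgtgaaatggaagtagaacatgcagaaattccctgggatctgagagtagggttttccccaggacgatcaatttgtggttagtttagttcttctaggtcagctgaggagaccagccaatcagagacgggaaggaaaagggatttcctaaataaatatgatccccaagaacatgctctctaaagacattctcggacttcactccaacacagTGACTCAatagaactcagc
Gbp2b: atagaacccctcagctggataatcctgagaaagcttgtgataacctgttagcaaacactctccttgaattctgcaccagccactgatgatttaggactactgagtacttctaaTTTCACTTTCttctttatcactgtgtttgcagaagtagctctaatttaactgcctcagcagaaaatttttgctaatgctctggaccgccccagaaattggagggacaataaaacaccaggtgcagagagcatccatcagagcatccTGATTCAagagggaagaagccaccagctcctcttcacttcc
Gbp5: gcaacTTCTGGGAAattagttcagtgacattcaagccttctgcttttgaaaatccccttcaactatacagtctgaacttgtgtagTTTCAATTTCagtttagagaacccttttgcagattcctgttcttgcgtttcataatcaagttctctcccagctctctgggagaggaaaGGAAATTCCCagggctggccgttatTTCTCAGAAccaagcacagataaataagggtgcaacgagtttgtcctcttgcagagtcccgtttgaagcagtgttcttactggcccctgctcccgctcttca

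In the Cybb window 3 ISRE cores were found, the nearest to the start beginning at position -29, with an AP-1 match at -139 and no NF-kB match. The Cxcl9 window held an AP-1 match at 32 and none of the other elements. The Gbp2b window held an ISRE core at -137 and an AP-1 match at 10. The Gbp5 window held an NF-kB match at -77, an ISRE core at -165 and GAS matches at -245 and -52. Cxcl10 (chr5:92348840-92349139, minus strand) was higher with TNF in both media and further in differentiation medium. Tnfaip3 (chr10:19015361-19015660, minus strand, the first of 2 windows) was higher by nearly the same amount in both. Serpinb2 (chr1:107511173-107511472, plus strand, the first of 2 windows) was the gene furthest towards growth medium.
Cxcl10: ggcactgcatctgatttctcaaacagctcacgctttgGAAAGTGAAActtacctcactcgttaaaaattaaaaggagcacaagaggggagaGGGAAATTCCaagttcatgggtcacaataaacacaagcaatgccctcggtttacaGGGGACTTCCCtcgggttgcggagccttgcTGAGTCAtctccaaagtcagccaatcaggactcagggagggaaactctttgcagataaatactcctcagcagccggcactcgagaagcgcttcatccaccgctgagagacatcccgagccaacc
Tnfaip3: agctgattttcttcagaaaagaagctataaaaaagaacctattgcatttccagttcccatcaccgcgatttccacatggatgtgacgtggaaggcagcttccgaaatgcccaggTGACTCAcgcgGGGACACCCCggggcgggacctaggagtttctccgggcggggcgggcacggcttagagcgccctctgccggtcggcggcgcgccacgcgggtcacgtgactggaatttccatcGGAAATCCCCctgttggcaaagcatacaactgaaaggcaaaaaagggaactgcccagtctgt
Serpinb2: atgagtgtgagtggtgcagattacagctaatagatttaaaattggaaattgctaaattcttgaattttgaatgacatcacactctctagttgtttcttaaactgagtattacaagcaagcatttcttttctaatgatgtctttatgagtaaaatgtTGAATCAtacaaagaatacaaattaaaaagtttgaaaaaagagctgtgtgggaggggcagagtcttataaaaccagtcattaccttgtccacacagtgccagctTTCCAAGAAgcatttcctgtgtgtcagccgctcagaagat

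In the Cxcl10 window NF-kB matches began at -159, -104 and -103, the last pair overlapping, beside an ISRE core at -213 and an AP-1 match at -74. The Tnfaip3 window held NF-kB matches at -125 and -12 and an AP-1 match at -136, and no ISRE core. The Serpinb2 window held an AP-1 match at -94 and a GAS match at 11, with neither an NF-kB nor an ISRE match in these letters. The windows shown are not a sample of their classes, since most genes high in differentiation medium with TNF held no ISRE core. No match to any of the 4 elements was found in the windows of Clec4e, Ch25h, Vegfc and Cilp.

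The levels of single genes are given below in a fixed order: growth medium untreated, growth medium with TNF, differentiation medium untreated, differentiation medium with TNF. All are log2 signals. Tnfrsf1a, the main TNF receptor, read alike in both media, at 9.09, 8.86, 8.96 and 8.95. Tnfrsf1b, the second receptor, read 7.76, 8.16, 8.06 and 8.96, a difference of differences of 0.51. Tnf itself was under the floor on all 4 arrays. The list of TNF receptors and death signalling had 23 genes, and its member Ripk1 was not measured. At least 2-fold higher with TNF were 2 in growth medium (0.982% of all genes) and 5 in differentiation medium (2.01%). In the difference of differences 0 were past 2-fold towards differentiation medium (1.84% of all genes) and 1 towards growth medium (0.996%). The median was 0.02 beside -0.03 for all genes. The member past 2-fold was the death receptor Fas, at 6.63, 9.43, 8.18 and 9.79. Its TNF effect was 2.80 in growth medium and 1.61 in differentiation medium, where its untreated level was already higher.

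NF-kB subunits and feedback genes responded in both media. Of 24 members 9 were at least 2-fold higher with TNF in growth medium (0.982% of all genes) and 10 in differentiation medium (2.01%). In either medium 0 were at least 2-fold lower, and Nfkb1, Chuk and Traf3 were not measured. The median TNF effect was 0.72 and 0.87. The median difference of differences was 0.13. There was 1 member past 2-fold towards differentiation medium (1.84% of all genes) and 0 towards growth medium (0.996%). Tnfaip3, the ubiquitin-editing enzyme A20 that shuts the pathway off, read 6.32, 8.92, 6.79 and 9.52. Both TNF levels stood well above both untreated levels, and the effects of 2.60 and 2.73 differed by 0.13. Nfkbie, an IkB protein, read 5.50, 8.44, 5.92 and 9.71, with a difference of differences of 0.85. The member past 2-fold was Birc3, an inhibitor of apoptosis that acts in the TNF receptor complex, at 4.26, 5.03, 3.99 and 6.05. It reached the floor on the last of these arrays alone, and its difference of differences of 1.29 became 0.99 with values under the floor set to the floor.

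Among other targets, 53 genes were at least 2-fold higher with TNF in both media and within 2-fold of each other. The 5 with the largest summed effect among those within 0.25 were Ccl7, Ch25h, Tnfaip3, Il6 and Vegfc. Ccl7, a chemokine for monocytes, read 8.62, 12.09, 8.29 and 11.77, effects of 3.47 and 3.48. Vegfc, a growth factor for lymphatic vessels, read 6.75, 9.02, 6.69 and 8.90. The equal effects follow from how these genes were chosen. The likeness was less secure for Ch25h and Il6. Ch25h, which makes 25-hydroxycholesterol, had a mean difference of 0.23 over 2 probe sets that read -0.68 and 1.13. Il6, the cytokine interleukin 6, read 3.75, 6.34, 5.03 and 7.51, and its difference of -0.10 became 1.18 with values under the floor set to the floor.

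Chemokines went further towards differentiation medium. Of 22 members 11 were past 2-fold in that direction, against 1.84% of all genes, and 0 in the other. Their median difference of differences was 0.97, which was 0.38 over all 34 measured members without a floor. In growth medium 9 of the 22 were at least 2-fold higher with TNF (0.982% of all genes), and in differentiation medium 13 (2.01%). Cxcl9, a ligand of the chemokine receptor Cxcr3, read 4.83, 4.94, 4.35 and 9.87. Its TNF effect was thus 0.11 in growth medium and 5.52 in differentiation medium. Its relatives Cxcl10 and Cxcl11, ligands of the same receptor, had differences of differences of 2.00 and 2.01. Cxcl10 read 4.69, 6.47, 4.46 and 8.24, and so was higher with TNF in both media, whereas Cxcl11 read 5.11, 5.25, 4.91 and 7.07.

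Several chemokines of the CC family, among them Ccl2, Ccl5, Ccl7, Ccl8 and Ccl9, were at least 2-fold higher with TNF in both media. Ccl5 read 5.04, 9.86, 4.37 and 12.67, with effects of 4.82 and 8.30. Its untreated levels were both under the floor, and the difference of differences of 3.48 became 2.81 with those values set to the floor. Ccl9 read 6.53, 7.74, 6.13 and 10.39, all 4 values above the floor, a difference of 3.06. Ccl2, the chief attractant of monocytes, reached 12.63 and 12.70 with TNF, nearly the same level in each medium. Its difference of 1.49 came from untreated levels of 7.52 in growth medium and 6.09 in differentiation medium. The highest value of any probe set was 14.06, so how far saturation limits levels of this size was not tested. The lowest difference among chemokines was that of Ccl4, at -0.58.

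Acute-phase and complement genes, which in the body are made largely by the liver, supplied several of the largest differences. Of 17 members 7 were past 2-fold towards differentiation medium (1.84% of all genes) and 0 towards growth medium (0.996%). Their median was 0.75, and 0.53 over all 29 measured members without a floor. Cfb, complement factor B of the alternative pathway, read 4.99, 6.39, 5.15 and 12.12. Its effects were 1.40 and 6.97, a difference of 5.57 that was 5.64 with the lowest value set to the floor. Lbp, which carries bacterial lipopolysaccharide to its receptor, read 4.71, 4.36, 4.79 and 9.31 and was thus measurable on the last array alone. Ptx3, a soluble pattern recognition protein, read 5.86, 7.26, 5.15 and 10.90, all above the floor. Saa3, an acute-phase apolipoprotein, went from 4.73 to 11.04 in growth medium and from 4.36 to 13.16 in differentiation medium. Haptoglobin (Hp), which binds free haemoglobin, differed by 2.05, with TNF levels of 7.20 and 8.96. The list was not uniform. Cp, the copper carrier ceruloplasmin, read 7.01, 9.23, 9.89 and 11.81, a TNF effect of about equal size in each medium with a difference of -0.30. Il1rn, the interleukin 1 receptor antagonist, passed by another route, since it was 1.29 lower with TNF in growth medium and 0.65 higher in differentiation medium.

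**Figure D2:**
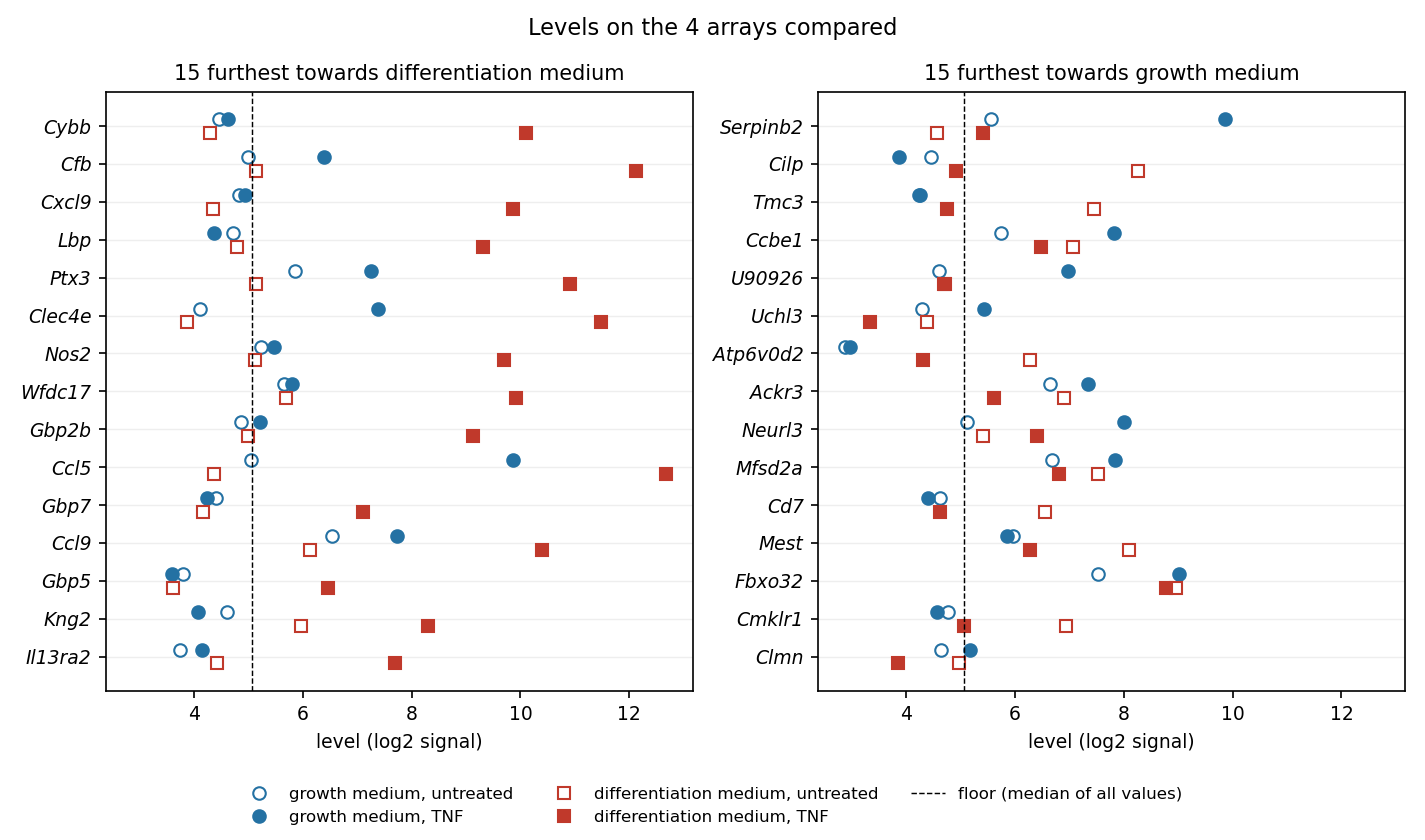
Log2 signal (x axis) on the 4 arrays for the 15 named genes furthest towards differentiation medium (left) and the 15 furthest towards growth medium (right), single arrays without error bars, with the floor of 5.06 as a dashed line. On the left the filled red square, differentiation medium with TNF, stands apart from the other 3 symbols for nearly every gene, while on the right the symbol that stands apart is the growth-medium TNF array for Serpinb2 and U90926 and the untreated differentiation-medium array for Cilp, Tmc3 and Cd7.

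Enzymes that make superoxide and nitric oxide held 2 of the 7 largest differences. Cybb, the catalytic subunit of the phagocyte NADPH oxidase, read 4.45, 4.62, 4.30 and 10.11. Only the array of differentiation medium with TNF was above the floor, and the 2 arrays with BTZ read 4.32 and 4.37. The difference of differences of 5.64 was the largest of all named genes. With values set to the floor it was 5.05, below the 5.64 of Cfb, so the order of these genes rests on values under the floor. Nos2, the inducible nitric oxide synthase, read 5.23, 5.47, 5.12 and 9.69. All 4 of its values were above the floor, but the first 3 lay near it. Gch1, which makes the cofactor tetrahydrobiopterin that nitric oxide synthases need, had a difference of 1.40, and Ncf4, a cytosolic subunit of the phagocyte oxidase, one of 1.98. Other oxidase subunits did not follow: Cyba, the membrane partner of Cybb, read 5.47, 5.57, 5.94 and 5.69, and Ncf1 differed by -0.66. Nox4, a different NADPH oxidase, was 1.40 lower with TNF in differentiation medium and differed by -1.16. Over the whole list of 27 genes 6 were past 2-fold towards differentiation medium (1.84% of all genes) and 1 towards growth medium (0.996%). Its median was 0.14.

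Genes switched on by interferon had TNF effects near 0 in growth medium, with a median of 0.11, and a median of 0.98 in differentiation medium. Of 26 interferon-stimulated genes 2 were at least 2-fold higher with TNF in growth medium (0.982% of all genes). In differentiation medium 13 were (2.01% of all genes), and 0 were at least 2-fold lower in either. Their median difference of differences was 0.61, and 0.43 over all 39 measured members without a floor. Of the 26, 10 were past 2-fold towards differentiation medium (1.84% of all genes) and 0 towards growth medium (0.996%). Zbp1, a sensor of nucleic acids, read 5.94, 6.04, 5.62 and 8.43. Parp14 read 4.94, 5.93, 5.36 and 8.01. Oasl2 and Ifit1, of families that act against viral RNA, had differences of 1.91 and 1.43, each with the last array alone above the floor. Some members were alike in both media: Ifit2 read 5.69, 6.66, 5.92 and 6.92, a difference of 0.04.

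The interferon-induced GTPases, which attack the vacuoles of intracellular pathogens, had the highest median of all 38 lists among genes that passed the floor. Without a floor their median was not the highest. Of 8 members above the floor 6 were past 2-fold towards differentiation medium (1.84% of all genes), with a median of 1.60. In growth medium 0 of the 8 were at least 2-fold higher or lower with TNF (0.982% and 1.02% of all genes). The median effect there was -0.05. Of the 14 measured members 3, 4, 3 and 8 reached the floor on the 4 arrays in the order used above. Gbp7, Gbp5, Iigp1 and Gbp3 passed the floor only through the last array, where they were high. The counts and the median of the 8 thus follow in part from the filter. Gbp2b read 4.86, 5.22, 5.00 and 9.13. Gbp7 and Gbp5 were under the floor on the first 3 arrays and read 7.11 and 6.45 on the last, so their differences of 3.12 and 3.05 became 2.05 and 1.39 with values set to the floor. Irgm1, the member past 2-fold with all arrays above the floor, read 6.22, 5.96, 5.77 and 7.0. The median of the list depends on the floor. Over all 14 measured members it was 0.79, and it was 2.31 with the floor at the upper quartile of all values. Guanylate-binding proteins are close relatives of each other, and signal shared between their probe sets was not tested.

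Interferon genes themselves mostly lay under the floor. Of 19 measured, 7 reached the floor on any of the 4 arrays. Over all 19 the differences of differences lay between -0.69, for Ifng, and 1.04, for Ifna15. Ifna15, an interferon alpha gene, read 5.95, 5.41, 5.55 and 6.05, all above the floor. It was past 2-fold towards differentiation medium through TNF effects of -0.54 and 0.50. Ifnb1, interferon beta, read 3.29, 3.18, 3.53 and 3.12, and Ifng, interferon gamma, 4.22, 4.38, 4.83 and 4.31, all under the floor. Several components that carry the interferon signal lay towards differentiation medium. The kinase Jak2 read 9.11, 9.87, 9.17 and 11.26. Stat2, part of the factor that binds ISRE, read 7.37, 6.82, 7.61 and 8.32. Ifngr1, a chain of the interferon gamma receptor, differed by 1.07, and the factor Irf1, higher with TNF by 1.27 and 2.00, by 0.74. Over 33 cytokine receptors and signalling genes 4 were past 2-fold towards differentiation medium (1.84% of all genes) and 1 towards growth medium (0.996%). Their median was 0.46. The member towards growth medium was Ackr3, a scavenger receptor for Cxcl12, at 6.64, 7.34, 6.91 and 5.61.

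The list of MHC and immunoproteasome genes had a median of 0.52 over 21 genes, and 0.36 over all 27 measured members without a floor. Of the 21, 4 were past 2-fold towards differentiation medium (1.84% of all genes) and 0 towards growth medium (0.996%). Psmb10 and Psmb8, catalytic subunits that turn the proteasome into the immunoproteasome, differed by 1.38 and 1.11. Psmb10 read 6.98, 8.40, 6.87 and 9.66 and was higher with TNF in both media. Psmb8 read 5.47, 5.55, 5.31 and 6.49 and was higher in differentiation medium alone. The peptide transporter Tap1 differed by 1.04 and the class Ib gene H2-T23 by 1.12. Of the MHC class II genes listed, H2-Aa, H2-Ab1 and H2-DMb1 were under the floor and Cd74 was not measured. Ciita, a regulator of class II genes, differed by -0.11.

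Receptors and mediators at the cell surface completed the immune genes. Of 24 pattern recognition receptors 3 were past 2-fold towards differentiation medium (1.84% of all genes). Clec4e, a lectin receptor for mycobacterial glycolipids and dead cells, read 4.11, 7.37, 3.87 and 11.48. It was higher with TNF in both media, by 3.27 and 7.61. The Toll-like receptors Tlr3 and Tlr2 differed by 1.43 and 1.23. Icam1, an adhesion molecule for leukocytes, read 5.35, 5.44, 5.05 and 7.04, a difference of 1.90. Vcam1, another adhesion molecule, was higher with TNF in both media, by 1.77 and 2.43. The whole list of adhesion and leukocyte interaction genes had a median of 0.05 over 21 genes, 11 of them above 0. Past 2-fold were 2 towards differentiation medium (1.84% of all genes) and 0 towards growth medium (0.996%). Alcam was lowest at -0.95. Among cytokines and growth factors, 4 of 31 were past 2-fold towards differentiation medium (1.84% of all genes) and 1 towards growth medium (0.996%). Csf1, the macrophage growth factor, was at 11.12 and 11.17 in growth medium, and went from 9.80 to 11.32 in differentiation medium. With TNF the media thus read alike, and the difference of 1.47 comes from a lower untreated level in differentiation medium. Hgf, a growth factor that activates muscle stem cells, likewise had a lower untreated level there, at 9.28, 8.82, 7.27 and 8.78. Il15, a cytokine made by muscle, read 4.29, 4.67, 4.51 and 6.76.

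**Figure D3:**
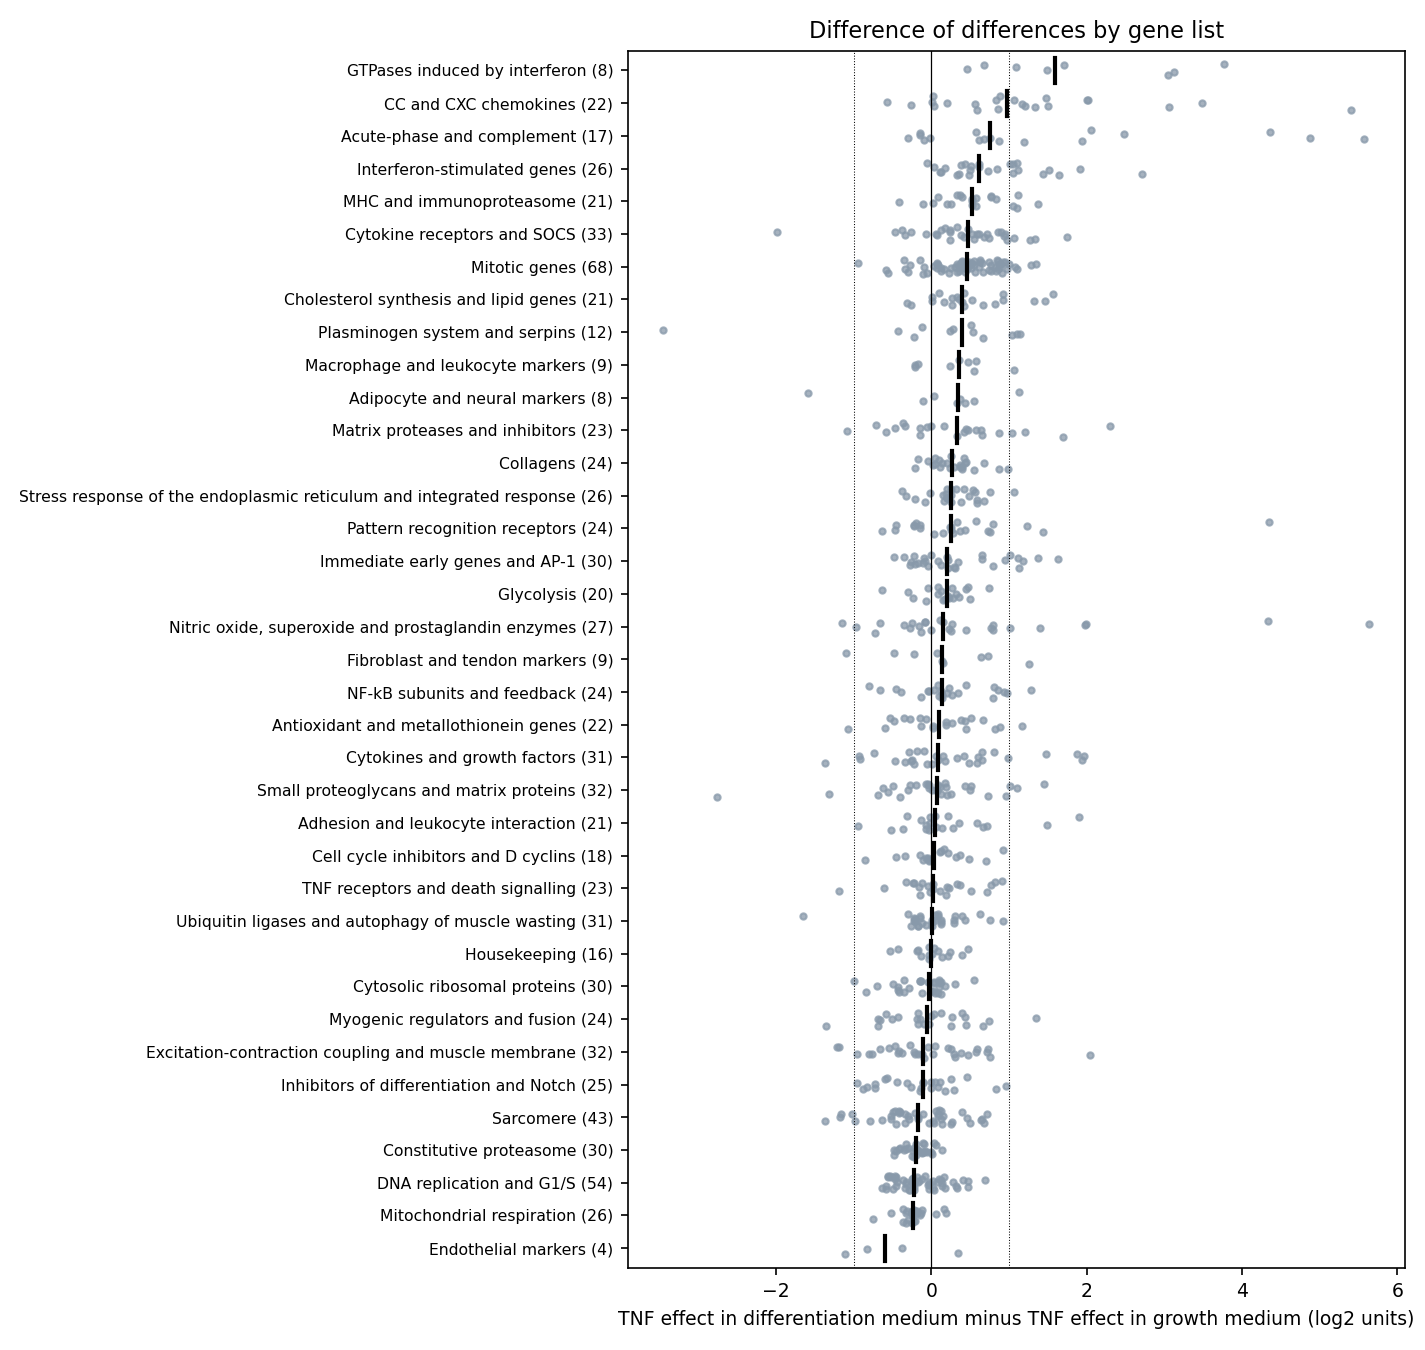
Each point is a gene's difference of differences (x axis, log2 units, TNF effect in differentiation medium minus that in growth medium), single arrays without error bars, for 37 gene lists with the number of genes used in brackets; thick bars are list medians and dotted lines 2-fold. Medians run from 1.60 for interferon-induced GTPases to -0.60 for the 4 endothelial markers above the floor, and most lists have medians within 0.5 of 0.

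A separate set of genes lay towards differentiation medium through lower levels with TNF in growth medium, the 38 genes at least 2-fold lower there and within 2-fold in differentiation medium. Adamts5, an enzyme that cleaves aggrecan and versican, read 8.95, 7.62, 9.86 and 10.84. F3, tissue factor, which starts blood clotting, read 9.66, 8.15, 7.13 and 7.91. Bmp4, a growth factor that favours bone over muscle fate, read 9.90, 8.33, 10.05 and 10.42. All of these values lie well above the floor. Some immediate early genes, which respond to growth factors and stress within minutes, had the same shape. Of 30 members 6 were past 2-fold towards differentiation medium (1.84% of all genes) and 0 towards growth medium (0.996%). Their median was 0.20. Egr1 read 9.38, 8.07, 9.29 and 9.62, and Fos read 7.52, 6.38, 8.61 and 8.59. Zfp36, which destroys mRNAs of cytokines, had smaller effects of opposite sign and read 7.48, 6.95, 7.58 and 8.42. Lss and Insig1, genes of sterol synthesis and its control, were 1.11 and 1.17 lower with TNF in growth medium and 0.36 and 0.15 higher in differentiation medium. Of 21 cholesterol and lipid genes 3 were past 2-fold towards differentiation medium (1.84% of all genes), with a median of 0.40.

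Lower with TNF in both media, but less so in differentiation medium, were Kcnj2, Car3, Ogn and C1qtnf3. Kcnj2, the inward rectifier channel that sets the resting potential of fusing myoblasts, read 8.0, 4.49, 8.22 and 6.75. The proteoglycan osteoglycin (Ogn) read 12.35, 9.0, 12.64 and 10.74. A related proteoglycan went the opposite way: asporin (Aspn) read 6.98, 4.12, 8.54 and 4.36. Since both TNF values of Aspn were under the floor, its difference of -1.32 depends on the untreated levels. Of 24 collagen genes 0 were past 2-fold in either direction (2.83% of all genes were), with a median of 0.27.

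Towards growth medium the largest difference was that of Serpinb2, an inhibitor of plasminogen activators, at 5.55, 9.85, 4.56 and 5.40. The TNF effect was 4.30 in growth medium and 0.84 in differentiation medium, a difference of -3.45. It was -3.95 with values under the floor set to the floor. Other serpins did not share this pattern. Of 12 genes of the plasminogen system and serpins, 3 were past 2-fold towards differentiation medium, against 1.84% of all genes. Serpinb9 and Serpinb8 differed by 1.04 and 1.10. Ccbe1, a secreted protein needed for the processing of Vegfc, read 5.75, 7.82, 7.07 and 6.47. Neurl3, a ubiquitin ligase, read 5.12, 8.0, 5.40 and 6.40. Mfsd2a, a lipid transporter, read 6.68, 7.84, 7.54 and 6.82. U90926, a long noncoding RNA gene, was above the floor on the growth-medium TNF array alone, at 6.98. Mmp13, a collagenase, was higher with TNF in both media, by 2.63 and 1.55.

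Other genes lay towards growth medium through lower levels with TNF in differentiation medium. Cilp, a matrix protein of cartilage and tendon that restrains TGF-β, read 4.45, 3.87, 8.25 and 4.91. The untreated culture in differentiation medium was thus the sole array above the floor, and with TNF the level was under it, as in growth medium. The same shape was seen for Tmc3 (4.26, 4.23, 7.45 and 4.74), for Cd7 and for Atp6v0d2, a subunit of the proton pump. Mest, an imprinted gene expressed in growing mesoderm, read 5.97, 5.85, 8.10 and 6.27, all above the floor. Adamts16 read 5.99, 5.98, 8.52 and 7.01. For such genes the untreated level was higher in differentiation medium: of the 136 genes 61 were at least 2-fold higher there without TNF and 6 lower, against 19 and 48 of the 251. The untreated arrays enter the difference of differences with the opposite sign, so part of this contrast follows from the shared arrays. The like counts over all genes were not made, so neither class can be set against the general difference between the untreated media.

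Muscle lists had medians near 0. Of 43 sarcomere genes 4 were past 2-fold towards growth medium (0.996% of all genes) and 0 towards differentiation medium (1.84%), with a median of -0.17. That median was 0.013 over the 33 members left with the floor at the upper quartile, so it gives the list no direction. Tnnt2, cardiac troponin T, which embryonic muscle also uses, read 9.01, 10.21, 12.70 and 12.53. Its difference of -1.38 came from a TNF effect of 1.20 in growth medium against -0.17 in differentiation medium. Xirp1, an actin-binding protein of the myotendinous junction, differed by -1.18. The slow myosin-binding protein Mybpc1 and the fast myosin Myh4, at -1.16 and -1.02, were under the floor on both growth-medium arrays. Other sarcomere members were within 2-fold. Myh3, the embryonic myosin, read 4.38, 3.62, 11.05 and 10.42, and nebulin (Neb), the ruler of the thin filament, 4.76, 4.45, 10.86 and 10.45. Of 32 genes of excitation-contraction coupling 2 were past 2-fold towards growth medium (0.996% of all genes). Kcnj2, described above, was the 1 member past it towards differentiation medium (1.84% of all genes), at 2.04. The median of the list was -0.11. The 2 genes towards growth medium belong to the neuromuscular junction. Rapsn, which clusters acetylcholine receptors, read 7.75, 8.44, 9.03 and 8.50. The receptor subunit Chrnb1 read 7.59, 8.14, 10.01 and 9.37. Itga7, the laminin receptor of muscle, read 9.01, 10.01, 11.54 and 11.18, a difference of -1.36.

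Myogenic regulators and fusion genes differed little, with a median of -0.06 over 24 genes. Of these 1 was past 2-fold towards differentiation medium (1.84% of all genes) and 1, Itga7, towards growth medium (0.996%). Myog, which drives terminal differentiation, read 6.71, 5.97, 10.90 and 10.59, and Myod1 read 8.12, 7.70, 9.73 and 8.81. Eya1, a coactivator of transcription in muscle development, was past 2-fold towards differentiation medium at 1.35. Among 31 ubiquitin ligases and autophagy genes of muscle wasting the median was 0.01. Past 2-fold were 0 towards differentiation medium (1.84% of all genes) and 1, Fbxo32, towards growth medium (0.996%). Fbxo32, the ligase atrogin-1, read 7.53, 9.01, 8.95 and 8.77, so its TNF effect of 1.48 in growth medium took it to the level that differentiation medium had without TNF. Its partner Trim63 (MuRF1) read 4.91, 5.25, 6.73 and 7.08, a difference of 0.01. Pdk4, which blocks glucose oxidation in fasting muscle, read 9.06, 9.72, 8.83 and 7.85.

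Mitotic genes were higher with TNF in differentiation medium from a low untreated level. Of 68 members 57 had a difference of differences above 0, with a median of 0.46. All genes had a median of -0.03 and a 75th percentile of 0.21, and their share above 0 was not counted. The members past 2-fold were 4 towards differentiation medium (1.84% of all genes) and 0 towards growth medium (0.996%). At least 2-fold higher with TNF were 1 in growth medium (0.982% of all genes) and 21 in differentiation medium (2.01%). Bub1, a kinase of the spindle checkpoint, read 8.96, 9.30, 5.07 and 6.76. Anln, a scaffold of the cleavage furrow, read 10.74, 10.85, 7.32 and 8.71. Even with TNF each stood lower in differentiation medium than on either growth-medium array. Genes of DNA replication and entry into S phase did not share this, with a median of -0.22. Among them 0 of 54 were past 2-fold in either direction, against 2.83% of all genes. Cell cycle inhibitors and D cyclins had a median of 0.04, with cyclin D1 (Ccnd1) at 0.92 and the inhibitor Cdkn1a at -0.85.

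Promoter letters were counted by class for genes with a RefSeq window, 10658 of the 13652. The NF-kB consensus was found in 12.2% of all these genes and the ISRE core in 3.45%. Among 38 genes with windows that were higher with TNF in both media and within 2-fold of each other, 19 (50%) held an NF-kB match and 3 (7.90%) an ISRE core. Among 85 genes towards differentiation medium and higher with TNF there, 17 (20%) held an NF-kB match and 17 (20%) an ISRE core. NF-kB matches were thus the more frequent in the class alike in both media, and the class of 85 genes held both elements equally often. Over all 178 genes with windows towards differentiation medium, whatever their TNF effects, 24 (13.5%) held an NF-kB match and 31 (17.4%) an ISRE core. The 85 genes thus held 17 of these 31, and an ISRE share above that of all genes was not particular to them. Of 29 genes towards differentiation medium and lower with TNF in growth medium, 3 held an NF-kB match and 3 an ISRE core, while 11 (37.9%) held the TATA box TATAAA. That box was found in 9.59% of all genes, in 23.5% of the genes higher in differentiation medium, in 23.7% of those alike in both media and in 19.8% of those towards growth medium, so every class lay above all genes. Of 86 genes towards growth medium 7 (8.14%) held an NF-kB match and 3 (3.49%) an ISRE core. GAS matches were found in 7.99% of all genes, in 8.24% of the genes towards differentiation medium and higher there, and in 18.4% of those alike in both media. AP-1 matches were found in 6.70%, 17.6% and 18.4% of the same sets, and in 20.7% of the genes lower with TNF in growth medium. The classes overlap in arrays and were set by the values, so these shares carry no test.

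**Figure D4:**
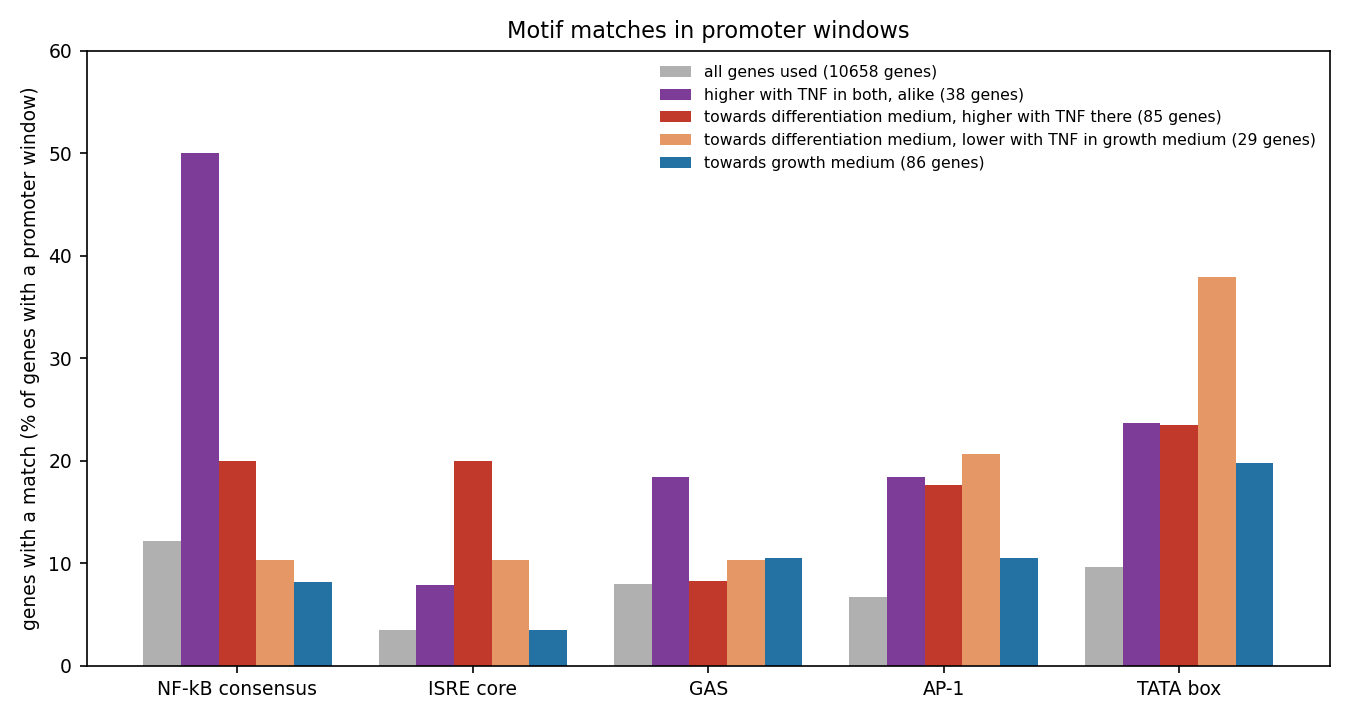
Bars give the percentage of genes (y axis, from 0) whose 300-base RefSeq promoter window holds at least 1 match to each motif (x axis), for all 10658 genes used and for 4 classes of 29 to 86 genes; bars are counts without error bars. The NF-kB bar is highest for genes higher with TNF in both media alike (50%), and the ISRE bar for genes towards differentiation medium and higher there (20%, against 3.45% of all genes). Over all 178 genes with windows towards differentiation medium, not drawn as a class, the ISRE share was 17.4%.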

How the data were processed

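C2C12 RNA was labelled by an Affymetrix whole-transcript protocol, per the labels' protocols. The authors deposited a single value for each probe set on each array, read here as log2 signal from the range of 1.66 to 14.06. How they were summarized and normalized is not given in the sources used here. Detection calls were not used. Array medians lay between 5.01 and 5.11. Of 41345 probe sets 23521 named 1 gene symbol, 1814 several and 16010 none. Probe sets naming 1 symbol were averaged by gene (814 genes used had several). In the lists 16 symbols were updated through RefSeq synonyms.

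Differences were computed with Python 3.11.15, numpy 2.4.6 and pandas 2.3.3, without further scaling, and the script was checked on simulated data. Members, 38 gene lists and motifs were chosen with earlier results of these data known. Named genes were the 15 highest and 15 lowest, the 10 highest and 10 lowest with all 4 arrays at the floor, the 4 or 6 largest of each list and its few members past 2-fold, genes of opposite direction, the 5 of like effect, and Cybb, Cfb, Serpinb2 and Cilp. Predicted genes, small RNAs, receptor families and histones were left out. Other genes were named for their role after their values were seen. Promoters were matched by symbol. Whether cultures were separate preparations is not given, and alternatives covered the floor, fold, scaling and probe set choice.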

Additional observations from a re-analysis of the deposited data

Results flagged for a closer look

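Uchl3, a ubiquitin hydrolase, was the sole gene used that was at least 2-fold higher with TNF in growth medium and at least 2-fold lower in differentiation medium. Its levels were 4.30, 5.42, 4.39 and 3.33 in the order used above, effects of 1.13 and -1.07 and a difference of differences of -2.19. The difference was not tested. Only the growth-medium array with TNF reached the floor, and the difference was -0.36 with values under the floor set to it.

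No comparison above uses the 8413 probe sets at the floor with no gene named. Of these, 652 lay at least 2-fold towards differentiation medium and 576 towards growth medium. Together they were 14.6% of these probe sets, against 2.83% of the genes used, and 53.1% of them lay towards differentiation medium. Of the 652, 81 reached the floor on the array of differentiation medium with TNF alone, above both untreated arrays. With a single array a group this count has no error, and the like count was not made for the other arrays.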

How the results depend on the processing

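The 251 genes towards differentiation medium became 157 with the floor at the upper quartile of values, 946 at 1.5-fold and 30 at 4-fold. With all 4 arrays required at the floor, an alternative chosen after seeing the data, they were 151. The 136 genes towards growth medium became 224 with the floor at the lower quartile, 71 at the upper quartile, 256 with no floor, 806 at 1.5-fold, 7 at 4-fold and 77 with all 4 arrays at the floor. Fewer or more genes enter under another floor by construction. With arrays shifted to the same median 237 and 136 of the genes were shared with those reported, after quantile normalization 236 and 132, and with values under the floor set to the floor 197 and 95. The median of the endothelial markers, -0.60 over 4 genes, turned to 0.027 with the floor at the lower quartile and without a floor. With the floor at the upper quartile medians near 0 changed sign for the sarcomere (0.013), cytokines and growth factors (-0.06) and ribosomal proteins (0.029), and so did those of the leukocyte (-0.19) and adipocyte and neural markers (-0.23), each over 2 genes. The acute-phase median became 2.00 with the floor at the upper quartile and 0.53 with no floor. The median of 16 housekeeping genes, -0.01, was 0.02 after quantile normalization, and it was the sole list median to change sign under the 2 scalings tried. Of 193 named genes 0 changed sign or moved by over 1.5-fold under the scalings, and 15 moved by that much with values set to the floor. Prelp, at 0.96, read 2.05 with its highest probe set, and Ch25h -0.68. With 250 bases before the start only, the GAS share of genes lower with TNF in growth medium became 3.45% and the ISRE share of genes alike in both media 5.26%. No paired analysis was possible because each group is a single array, and no array could be left out.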

Other observations

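Genes of mitochondrial respiration and the constitutive proteasome had small differences of differences, most of them below 0. All genes had a median of -0.03, with 25th and 75th percentiles of -0.25 and 0.21, and 2.83% of them were past 2-fold. The share of all genes above 0 was not counted. Of 26 genes of mitochondrial respiration 3 were above 0 and 0 were past 2-fold, with a median of -0.23. Cox5a, a subunit of cytochrome oxidase, read 9.57, 9.85, 9.38 and 9.29 in the order used above. Sdhb, a subunit of succinate dehydrogenase, read 8.27, 8.56, 8.35 and 8.11. Of 30 subunits of the constitutive proteasome 4 were above 0 and 0 past 2-fold, with a median of -0.19, and the base subunit Psmc3 was lowest at -0.48. The immunoproteasome subunits described above lay on the other side of 0. Of 20 glycolysis genes 15 were above 0, with a median of 0.20, and with Pfkfb3, a regulator of the pathway, at 0.75 and the muscle phosphofructokinase Pfkm at -0.64. Pfkm read 6.81, 6.91, 8.89 and 8.35.

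Genes of the stress response of the endoplasmic reticulum and the integrated stress response had a median of 0.26 over 26 genes, 21 of them above 0. The median of all genes was -0.03. Past 2-fold were 1 towards differentiation medium (1.84% of all genes) and 0 towards growth medium (0.996%). The 1 member was Aldh1l2, a mitochondrial folate enzyme, at 1.07. In the antioxidant list of 22 genes 1 was past 2-fold towards differentiation medium (1.84% of all genes) and 1 towards growth medium (0.996%). Hmox1, haem oxygenase, read 10.03, 9.23, 8.53 and 8.89, a difference of 1.16. Slc7a11, the cystine transporter, differed by -1.07 over 2 probe sets that read -1.61 and -0.54, and it became -0.18 with values under the floor set to the floor.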
